A study of Mus musculus with 32 samples.

Results

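The genes described here are 34 genes of glycolysis and of the response to low oxygen, among 24475 genes with an RNA value in 2 mouse cell lines. They were chosen by name from pathway knowledge, with earlier results of these data known, and all 34 stand in the table of each line. The members are 14 glycolytic enzymes, 3 glucose and lactate transporters, 3 regulators of glycolytic flux, 3 genes of oxygen sensing, 4 mitochondrial and mitophagy genes, 2 collagen prolyl hydroxylases and 5 other hypoxia-induced genes. RNA-seq compared cells transduced with a guide RNA against Bcl11b, a zinc finger transcription factor of T cells and innate lymphoid cells, with cells transduced with a control guide, both carried with a CFP marker. The first line, Scid.adh.2c2, is pro-T-like and was kept in 10% fetal bovine serum. The second, ILC2/b6, derives from innate lymphoid cells of group 2 and was kept in 20% serum with 10 ng/ml each of the cytokines IL-33, IL-7 and IL-2. The series holds 32 samples: 8 RNA libraries (2 for each guide and line), 16 ChIP-seq libraries for Bcl11b, GATA3, Runx1 and Runx3 in both lines, and 8 inputs. The labels give neither the share of edited cells nor whether replicates were separate cultures, so a p-value measures the spread between these libraries, which may be technical. Each line is a single established line.

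Glycolysis splits glucose into pyruvate in the cytosol, and lactate dehydrogenase turns pyruvate into lactate so that the pathway can run without oxygen. When oxygen is low, prolyl hydroxylases of the Egln family no longer mark the HIF alpha subunits for destruction, and HIF binds DNA at a core motif read as ACGTG or GCGTG. Its known targets include most glycolytic enzymes, the glucose transporter Slc2a1, the mitophagy receptor Bnip3, Pdk1, Ankrd37, Ndrg1 and the hydroxylases themselves. T cells and innate lymphoid cells are known to raise glycolysis when activated.

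Bcl11b itself (chr12:109148613-109241624, mm9) was measured in Scid.adh.2c2 at 47.00 and 49.5 RPKM with the control guide, against 47.1 and 46.8 RPKM in the Bcl11b guide pair. The ILC2/b6 values were 6.85 and 6.33 RPKM and 7.04 and 7.24 RPKM. Neither difference passed the test (limma adjusted p = 0.455 and 0.278). In Scid.adh.2c2 Bcl11b was called lower after median centring (-0.17, adjusted p = 0.00856) and under quantile normalization (-0.11, adjusted p = 0.046). Since editing can leave mRNA in place, the labels could not be checked this way. RPKM is reads per kilobase of transcript, scaled to the depth of the library, and replicates are given in the order 1 and 2 throughout. The libraries held between 34.7 and 43.7 M reads. Markers of both lineages moved with the guide. In Scid.adh.2c2 the summed RPKM of 8 pro-T markers was 1016 and 1031 in control and 725.9 and 730.7 in Bcl11b guide libraries (5 fell, 2 rose). That of 8 ILC2 markers was 64.2 and 65.6 against 94.0 and 97.2 (4 tested, all rose). Most of the summed level was Gata3, also a gene of T cells, at 53.95 and 56.99 against 63.12 and 66.22. Rora rose from 6.37 and 6.83 to 20.8 and 20.1 RPKM, and Il13 from 2.21 and 0.816 to 7.65 and 8.43 RPKM. Klrg1 reached 1 RPKM in the Bcl11b guide libraries alone, so its groups had to differ. Il1rl1, Il5, Areg and Icos were too low to be tested. In ILC2/b6 the pro-T sum was between 18.2 and 21.7, nearly all of it Notch1 (17.07 to 20.37), with 7 of the 8 markers under 1 RPKM. The ILC2 sum was 8248 and 8417 in control and 5826 and 5977 in Bcl11b guide libraries (3 fell, 2 rose, 3 not called). Summed B cell, myeloid and erythroid markers stayed at or under 0.399 RPKM in every library. Of the mast cell pair, Cpa3 had 23.5 and 21.4 RPKM in control and 62.4 and 62.7 RPKM in Bcl11b guide libraries of Scid.adh.2c2 and Mcpt4 was at 0, while in ILC2/b6 Mcpt4 rose from 0.762 and 0.839 to 2.31 and 1.77 RPKM (0.96, adjusted p = 0.00332). Mcpt4 reached 1 RPKM in ILC2/b6 through the Bcl11b guide libraries alone, so its groups there had to differ. Of 3 stroma markers, Pdgfrb had 5.52 and 5.97 RPKM in control and 1.41 and 1.31 RPKM in Bcl11b guide libraries of Scid.adh.2c2. The part of these marker changes in the results below was not tested.

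The promoters of the members that moved most in Scid.adh.2c2 are shown because HIF reads such motifs. The RefSeq table (build GRCm38.p6) holds a promoter, 250 bases before to 50 after the annotated start, for 30 of the 34 members, and none is printed for Slc2a3, Bnip3l, Ndrg1 or Stc1. Each line gives the 250 bases before the start, 5′ to 3′ on the gene's strand, with ACGTG and GCGTG in capitals on either strand (CACGT and CACGC on the other). A CACGTG is read on both strands.
Ankrd37 (chr8:45999851-46000100, minus strand): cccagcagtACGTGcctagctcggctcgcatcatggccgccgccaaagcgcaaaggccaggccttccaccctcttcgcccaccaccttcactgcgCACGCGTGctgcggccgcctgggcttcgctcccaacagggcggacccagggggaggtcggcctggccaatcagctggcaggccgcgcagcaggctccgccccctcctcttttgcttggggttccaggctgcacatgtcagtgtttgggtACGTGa
Mgarp (chr3:51396548-51396797, minus strand): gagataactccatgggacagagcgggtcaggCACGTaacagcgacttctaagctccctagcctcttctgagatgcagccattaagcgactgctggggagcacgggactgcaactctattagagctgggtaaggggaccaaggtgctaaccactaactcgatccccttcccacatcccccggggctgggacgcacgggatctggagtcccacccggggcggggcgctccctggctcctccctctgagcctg
Bnip3 (chr7:138909507-138909756, minus strand): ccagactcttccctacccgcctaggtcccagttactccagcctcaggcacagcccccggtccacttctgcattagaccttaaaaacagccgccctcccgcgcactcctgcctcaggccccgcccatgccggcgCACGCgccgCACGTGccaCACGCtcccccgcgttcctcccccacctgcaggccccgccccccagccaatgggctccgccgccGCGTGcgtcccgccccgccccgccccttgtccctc
Egln3 (chr12:54203875-54204124, minus strand): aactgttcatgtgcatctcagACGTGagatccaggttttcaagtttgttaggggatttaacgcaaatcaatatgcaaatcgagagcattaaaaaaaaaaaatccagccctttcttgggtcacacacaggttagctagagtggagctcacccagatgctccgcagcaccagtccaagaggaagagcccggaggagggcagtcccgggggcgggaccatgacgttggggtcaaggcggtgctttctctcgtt
P4ha2 (chr11:54100674-54100923, plus strand): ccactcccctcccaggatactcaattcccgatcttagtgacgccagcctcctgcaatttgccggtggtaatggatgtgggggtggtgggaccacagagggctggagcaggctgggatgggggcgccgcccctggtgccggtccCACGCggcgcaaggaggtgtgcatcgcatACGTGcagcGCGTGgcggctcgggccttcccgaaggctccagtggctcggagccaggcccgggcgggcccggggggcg
Pdk1 (chr2:71872974-71873223, plus strand, the first of 2 in the table): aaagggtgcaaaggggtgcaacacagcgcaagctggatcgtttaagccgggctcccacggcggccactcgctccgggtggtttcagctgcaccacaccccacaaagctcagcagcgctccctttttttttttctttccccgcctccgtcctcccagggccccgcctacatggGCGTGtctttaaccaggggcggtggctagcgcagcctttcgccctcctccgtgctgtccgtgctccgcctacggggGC

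Bnip3 holds 5 matches, from -117 to -35, among them a CACGTG. Ankrd37 and P4ha2 hold 4 matches each in the full window, and the fourth of P4ha2 lies 10 bases after the start. In Egln3 and Mgarp the single match stands at -229 and -219 relative to the start, and Pdk1 holds 2 GCGTG. Over the 30 promoters, 19 held ACGTG, 17 held GCGTG and 24 (80%) held either, beside 19.6%, 32.4% and 43.8% of the 32851 promoters in the table. Ldha held the most, 5 ACGTG and 2 GCGTG, whereas Hk1, Gpi1, Aldoa, Tpi1, Pkm and Vegfa held neither in this window. The members' promoters had a median GC content of 65.2%, beside 52.7% over the table, and the part of GC in these shares was not tested. Either motif stood in 16 of 20 promoters of members whose RNA fell in Scid.adh.2c2 and in 8 of 10 of the other members, the same share of 80%.

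In Scid.adh.2c2, the Bcl11b guide was compared with the control guide over 31 members that reached 1 RPKM in at least 2 of the 4 libraries. With the Bcl11b guide 23 members fell and 3 rose, and 5 did not pass the test. Over all 10221 genes tested, 22.7% fell and 35.1% rose, so the members' falls stand above the background and their rises below it. The members' median log2 fold change was -0.77, beside 0.05 over all genes tested. Fold changes are on the log2(RPKM + 0.5) scale, given ± SE over 2 against 2 libraries, and adjusted p-values are from limma with Benjamini-Hochberg adjustment over all genes tested. In 25 members both Bcl11b guide libraries lay below both control libraries, against 33.5% of all genes tested. In 4 both lay above, and in 2 the groups overlapped, with no share of all genes counted for these. Of the 31, Mgarp and Stc1 passed the filter through the control libraries alone and P4ha2 through the Bcl11b guide libraries alone, so their groups had to differ. Among the 28 members at 1 RPKM or more in all 4 libraries, 21 fell and 2 rose, with no share of all genes counted under that limit. Centring each library on its median moved the median of all genes from 0.05 to -0.08 and gave 25 members that fell and 2 that rose, beside 38.5% and 24.1% of all genes. With no filter on low values, 3 members stayed called (Pdk1, P4ha2 and Stc1) and 21 were under an unadjusted p of 0.05 in limma.

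The control libraries of Scid.adh.2c2 stand apart for these genes. Control replicate 1 was above control replicate 2 in 29 of 31 members, with a median log2 ratio of 0.35, while over all genes tested replicate 1 was the higher in 36.7% and the median was -0.04. These 2 libraries held 43.7 and 34.7 M reads. The ratio reached 0.5 or more in 10 members, beside 0.626% of all genes, and was 1.34 for Ndrg1, 1.17 for Mgarp and 1.01 for Ankrd37. Between the Bcl11b guide replicates the members' median was 0.10, beside -0.00 over all genes tested. There replicate 1 was the higher in 27 of 31 members, beside 49.6% of all genes. Bnip3 at 0.53 and Ankrd37 at 0.55 were the 2 members at 0.5 or more, beside 0.391% of all genes. In ILC2/b6 the medians were 0.04 for control and 0.01 for Bcl11b guide libraries, and no member reached 0.5 in either. Most members thus differed in the same direction between the 2 control libraries, and what differed between these libraries was not tested. Without control replicate 1 the members' median log2 fold change was -0.54, beside 0.03 over all genes tested. Without control replicate 2 these were -0.96 and 0.08. In these fits the lone control library is assumed to vary like the Bcl11b guide pair.

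**Figure D1:**
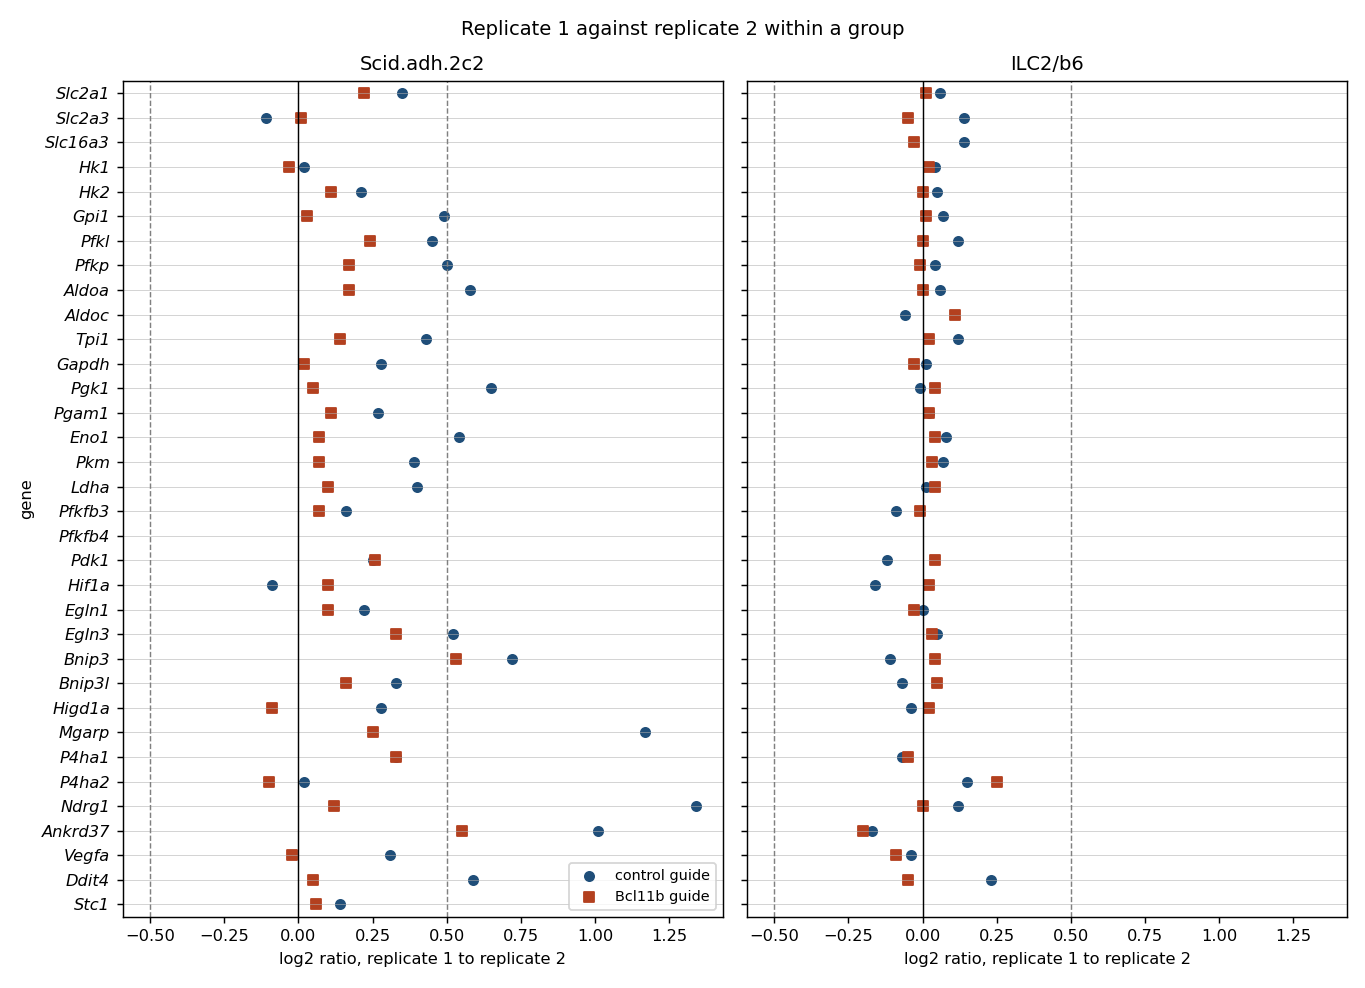
Log2 ratio of replicate 1 to replicate 2 on log2(RPKM + 0.5) for each tested gene (rows), control libraries as circles and Bcl11b guide libraries as squares, with dashed lines at 0.5 and -0.5. In Scid.adh.2c2 nearly all control ratios lie right of 0, up to 1.34 for Ndrg1, while in ILC2/b6 they lie between -0.17 and 0.23.

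Of the glycolytic enzymes, 11 of 13 tested fell in Scid.adh.2c2 and none rose. Aldoc, the brain-type aldolase, was under 1 RPKM in all 4 libraries, with 0.214 RPKM at most. Summed over the 14 enzymes, RPKM was 6571 and 4759 in the control and 3325 and 3127 in the Bcl11b guide libraries, or 57% of the control mean. Control replicate 2 held 72.4% of control replicate 1, and the Bcl11b guide pair lay below both. In bulk RNA, fewer cells of a type and less RNA per cell cannot be told apart.

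The first steps of the pathway did not all move alike. Hk1, the hexokinase bound to mitochondria, had 17.2 and 16.96 RPKM in the control and 18.3 and 18.7 RPKM in the Bcl11b guide libraries and did not pass the test (0.11 ± 0.05, adjusted p = 0.0763). Hk2, the inducible hexokinase (chr6:82675021-82724448), fell from 19.4 and 16.7 to 15.5 and 14.3 RPKM (-0.27 ± 0.08, adjusted p = 0.0225). The call was lost without Bcl11b guide replicate 2, at a log2 fold change of -0.21 (adjusted p = 0.155). Gpi1, glucose phosphate isomerase, fell from 243 and 173 to 136 and 133 RPKM (-0.60 ± 0.14, adjusted p = 0.00731). Its fold ranged from -0.85 without control replicate 2 to -0.36 without control replicate 1.

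Phosphofructokinase commits sugar to glycolysis. Its liver-type subunit Pfkl (chr10:77449694-77472552) fell from 73.00 and 53.2 to 29.7 and 25.1 RPKM (-1.18 ± 0.14, adjusted p = 0.000373), and the groups were far apart. The platelet-type subunit Pfkp went from 41.7 and 29.3 to 28.4 and 25.3 RPKM and missed the threshold (-0.38 ± 0.15, adjusted p = 0.0614). It was called with a replicate block (adjusted p = 2.32e-05), after median centring (-0.51, 0.0343), under quantile normalization (-0.47, 0.0363) and in the joint fit (0.0423). Its control replicate 2 lay close to Bcl11b guide replicate 1, and the fold ranged from -0.63 to -0.13 as single libraries were left out. Aldoa, the main aldolase here, fell from 841 and 565 to 410.5 and 365 RPKM (-0.83 ± 0.17, adjusted p = 0.00437). Tpi1, triose phosphate isomerase, fell from 422 and 313 to 209.6 and 190.2 RPKM (-0.86 ± 0.13, adjusted p = 0.00103).

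The later steps of the pathway carried the most abundant members. Gapdh, often used as a control gene, fell from 336 and 278 to 215 and 212 RPKM (-0.52 ± 0.08, adjusted p = 0.00159), the smallest fold among the 6 enzymes from Gapdh to Ldha. Pgk1, the first step of this stretch that yields ATP (chrX:103382439-103399038), fell from 742 and 471 to 268 and 258 RPKM (-1.17 ± 0.18, adjusted p = 0.00129). Without control replicate 1 its fold was -0.84, still past the threshold. Pgam1, a mutase, fell from 380.4 and 316 to 221 and 204 RPKM (-0.71 ± 0.09, adjusted p = 0.000409). Eno1, enolase, had the highest level of the members in the controls and fell from 1317 and 904 to 650.5 and 618 RPKM (-0.78 ± 0.15, adjusted p = 0.00414). Pkm, pyruvate kinase, fell from 1121 and 853 to 587 and 561 RPKM (-0.77 ± 0.12, adjusted p = 0.00123). Ldha, which makes lactate, fell from 1016 and 770.0 to 535 and 501 RPKM (-0.77 ± 0.12, adjusted p = 0.00131). For Eno1, Pkm and Ldha the folds lay between -0.77 and -0.78, and without control replicate 1 they were -0.51, -0.57 and -0.57, all past the threshold. Several of these genes, Gapdh among them, have processed pseudogenes in the mouse genome, so how their reads were divided in counting is uncertain.

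Glucose enters through Slc2a1 (chr4:118781350-118809934), the transporter GLUT1. It fell from 29.98 and 23.4 to 12.6 and 10.7 RPKM (-1.15 ± 0.12, adjusted p = 0.000179). Slc2a3, the high-affinity transporter GLUT3, went from 13.2 and 14.3 to 12.6 and 12.5 RPKM and did not pass the test (-0.12 ± 0.06, adjusted p = 0.114), though it did with median-centred values (-0.26, adjusted p = 0.00358). Slc16a3, a lactate exporter, was under 1 RPKM in every library, at 0.237 RPKM or less.

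Among the regulators of flux, Pdk1 and Pfkfb3 moved in opposite directions. Pdk1, which inhibits pyruvate dehydrogenase and so keeps pyruvate out of the mitochondria (chr2:71711281-71741915), fell from 24.7 and 20.7 to 10.01 and 8.29 RPKM (-1.27 ± 0.11, adjusted p = 6.29e-05). Its control libraries differed by a log2 ratio of 0.25 and its Bcl11b guide libraries by 0.26, so this fall was several times the spread. Pfkfb3, which makes the activator of phosphofructokinase, rose from 16.1 and 14.4 to 18.5 and 17.6 RPKM (0.24 ± 0.07, adjusted p = 0.0161). With median-centred values its log2 fold change was 0.11 and not called (adjusted p = 0.248), and the call was also lost without Bcl11b guide replicate 1 (0.136) or 2 (0.0606). Pfkfb4, a related enzyme, was under 1 RPKM in every library of both lines, at most 0.344 RPKM in Scid.adh.2c2 and 0.731 RPKM in ILC2/b6.

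The oxygen-sensing genes split in the same way. Hif1a, the regulated HIF subunit (chr12:75002311-75048517), rose from 28.2 and 29.9 to 38.7 and 36.1 RPKM (0.36 ± 0.05, adjusted p = 0.000976), with both Bcl11b guide libraries above both controls. Control replicate 1, the higher library for most members, was the lower for Hif1a. Egln1, the main hydroxylase of HIF, fell from 39.4 and 33.8 to 26.1 and 24.4 RPKM (-0.53 ± 0.07, adjusted p = 0.000881). Egln3, a hydroxylase that HIF induces (chr12:55279968-55304861), fell from 70.1 and 48.6 to 21.2 and 16.8 RPKM (-1.61 ± 0.17, adjusted p = 0.00019). HIF is controlled mainly at the protein level, which RNA does not show.

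All 4 mitochondrial and mitophagy genes fell. Bnip3, a mitophagy receptor (chr7:146082519-146101189), went from 41.7 and 25.02 to 11.6 and 7.90 RPKM (-1.70 ± 0.24, adjusted p = 0.000883). Replicate 1 was the higher in both of its groups, and the lowest control was still above the highest Bcl11b guide library. Bnip3l, its paralog, fell from 23.6 and 18.7 to 17.3 and 15.4 RPKM (-0.35 ± 0.11, adjusted p = 0.0251), and lost the call without Bcl11b guide replicate 2. Higd1a, a small protein of the inner mitochondrial membrane, fell from 32.3 and 26.6 to 22.2 and 23.6 RPKM (-0.35 ± 0.09, adjusted p = 0.0121) and lost the call without Bcl11b guide replicate 1 (adjusted p = 0.0676). Mgarp, a mitochondrial protein, had 5.87 and 2.33 RPKM in the control and 0.480 and 0.325 RPKM in the Bcl11b guide libraries (-2.24 ± 0.33, adjusted p = 0.00106). It passed the filter through the control libraries alone, so its groups had to differ.

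The 2 collagen prolyl hydroxylase subunits moved in opposite directions. P4ha1 (chr10:58786044-58836052) fell from 29.8 and 23.7 to 16.6 and 13.2 RPKM (-0.82 ± 0.13, adjusted p = 0.00149). P4ha2 (chr11:53914426-53945169) rose from 0.486 and 0.472 to 2.20 and 2.39 RPKM (1.51 ± 0.10, adjusted p = 1.74e-05). It passed the filter through the Bcl11b guide libraries alone, so its groups had to differ.

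The largest falls were among the other hypoxia-induced genes. Ndrg1, a stress-responsive cytosolic protein (chr15:66760880-66801203), stood at 117 and 45.9 RPKM in the control and 8.29 and 7.59 RPKM in the Bcl11b guide libraries (-3.13 ± 0.36, adjusted p = 0.000304). Leaving out control replicate 1 gave -2.46, and leaving out control replicate 2 gave -3.80. Ankrd37, an ankyrin repeat gene induced by HIF (chr8:47082262-47085204), fell from 29.1 and 14.2 to 4.18 and 2.69 RPKM (-2.43 ± 0.31, adjusted p = 0.000523), with -1.93 and -2.94 in the same 2 fits. For Mgarp these were -1.65 and -2.82, and for Bnip3 -1.34 and -2.06. Stc1, a secreted glycoprotein hormone (chr14:69647346-69659458), fell from 8.67 and 7.84 to 0.885 and 0.825 RPKM (-2.69 ± 0.09, adjusted p = 5.69e-07). Stc1 also passed the filter through the control libraries alone, so its groups had to differ. In contrast to the 3 members with the widest control gap, its control libraries lay close together and its fold ranged only from -2.76 to -2.62.

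Vegfa and Ddit4, which are also known hypoxia targets, did not pass the test. Vegfa, an angiogenic growth factor, had 20.1 and 16.1 RPKM in the control and 18.1 and 18.4 RPKM in the Bcl11b guide libraries (0.02 ± 0.10, adjusted p = 0.845), so the Bcl11b guide pair lay between the controls. Ddit4, an inhibitor of mTORC1 that amino acid and ER stress also induce, had 120.0 and 79.7 RPKM and 106 and 103 RPKM in the same order (0.10 ± 0.16, adjusted p = 0.631), again between the controls. Which control was kept decided their sign: without control replicate 1 Vegfa was at 0.18 and Ddit4 at 0.39, and without control replicate 2 at -0.13 and -0.20, each past the threshold (adjusted p = 0.00583, 2.29e-06, 0.0246 and 0.000537). In total 10 members fell by 2-fold or more, among 172 genes of all 10221 that did. Mgarp and Stc1, whose groups had to differ, are among these members.

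**Figure D2:**
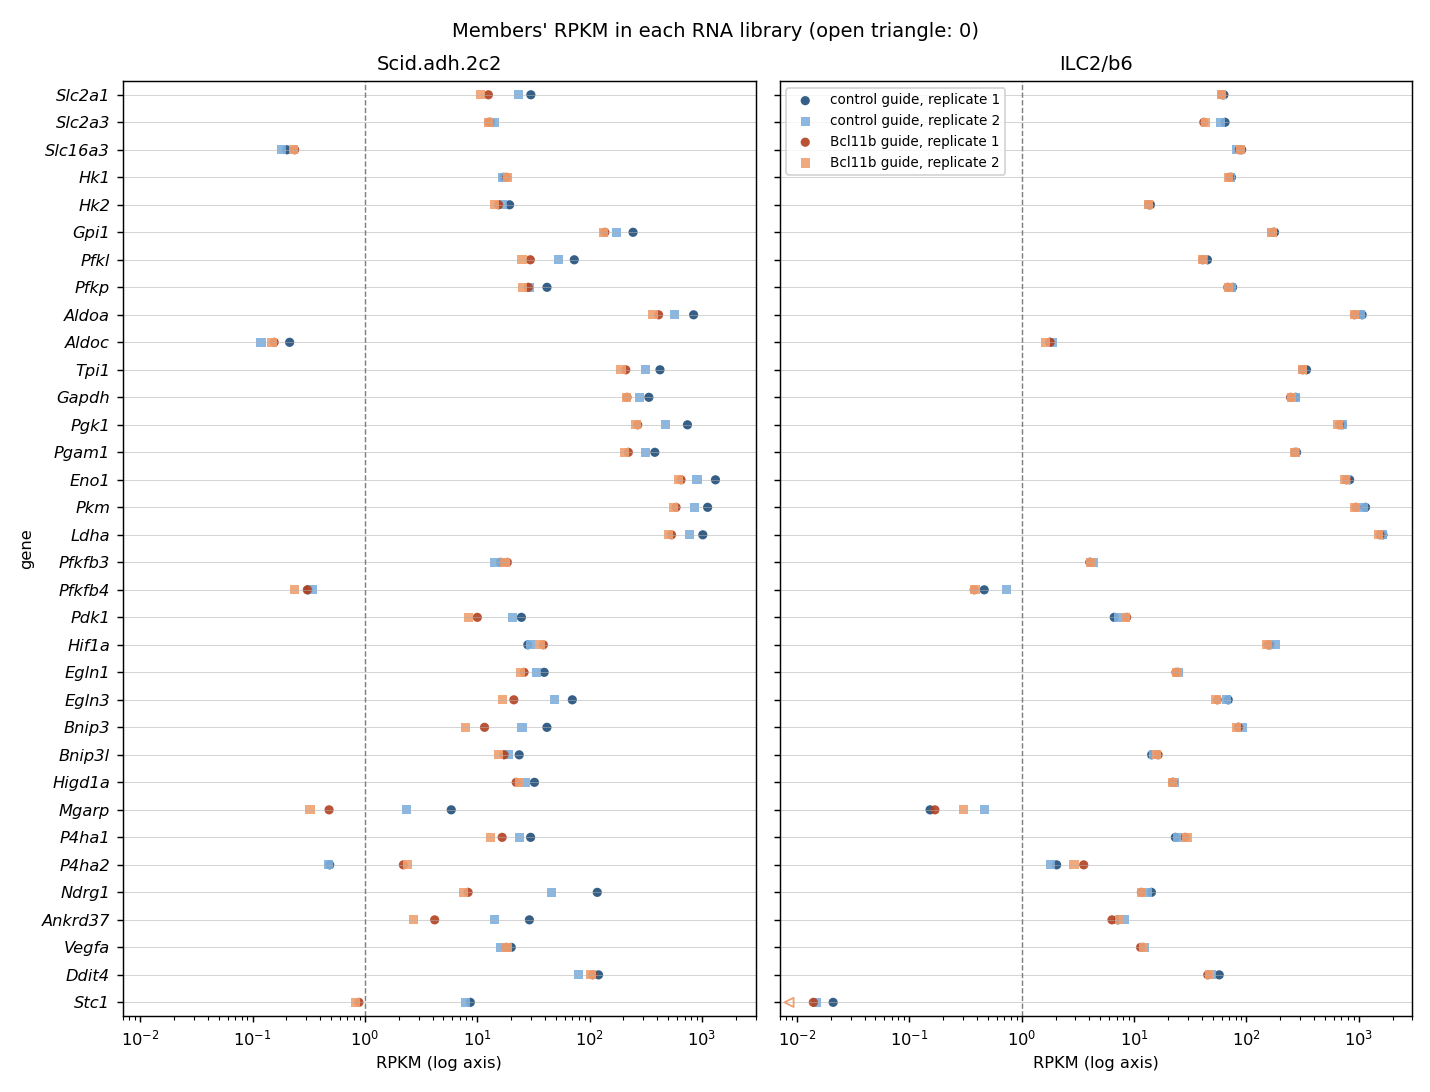
RPKM (log axis) of each of the 34 genes (rows) in the 4 RNA libraries of each line, control guide in blue and Bcl11b guide in orange, circles for replicate 1 and squares for replicate 2, with a dashed line at the filter of 1 RPKM. In Scid.adh.2c2 the Bcl11b guide libraries lie left of the controls for most genes and the controls are spread, as for Ndrg1 at 117 and 45.9 RPKM, while in ILC2/b6 the 4 libraries lie close together.

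In ILC2/b6 the same comparison gave fewer calls in these genes than in Scid.adh.2c2. Of 31 tested members 6 fell, 3 rose and 22 did not pass the test, with Pfkfb4, Mgarp and Stc1 below the filter. Over all 10526 genes tested 6.21% fell and 8.32% rose, so in this fit the members' falls stand above the background and their rises near it. The members' median log2 fold change was -0.07, beside 0.02 over all genes. In 18 members both Bcl11b guide libraries lay below both controls, against 26.3% of all genes tested. In 4 both lay above, and in 9 the groups overlapped, again with no share of all genes counted. All 31 were at 1 RPKM or more in the 4 libraries, and none fell by 2-fold. Under the joint fit of all 8 libraries 2 of the 9 calls were kept, Slc2a3, which fell, and P4ha2, which rose. In that fit 5.69% of all genes tested fell and 8.27% rose. As single libraries were left out, Aldoa, Gapdh, Pdk1 and Ndrg1 lost their calls without either Bcl11b guide library. Gapdh, Pdk1 and Ndrg1 also lost them without control replicate 1. A smaller share of all genes was called in each of these fits as well.

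The largest fall was that of Slc2a3 (chr6:122677827-122692763), from 64.5 and 58.5 to 41.7 and 43.2 RPKM (-0.53 ± 0.05, adjusted p = 0.00119). Slc2a1, the transporter that fell in Scid.adh.2c2, had 63.01 and 60.4 RPKM and 60.7 and 60.3 RPKM with the control and the Bcl11b guide and did not pass the test (-0.03 ± 0.04, adjusted p = 0.666). Slc16a3, the lactate exporter, lay between 82.01 and 90.7 RPKM in the 4 libraries, while in Scid.adh.2c2 it was nearly silent.

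Of the glycolytic enzymes 3 of 14 fell in ILC2/b6, all by little. Pkm went from 1147 and 1096 to 941 and 924 RPKM (-0.27 ± 0.04, adjusted p = 0.00538). Aldoa went from 1070 and 1026 to 915 and 912 RPKM (-0.20 ± 0.04, adjusted p = 0.0158). Gapdh went from 273 and 271 to 247 and 251 RPKM (-0.13 ± 0.03, adjusted p = 0.0455), the fall nearest to the threshold. For each of the 3, both Bcl11b guide libraries lay below both controls. Ldha, the most abundant member in this line, had 1639 and 1627 RPKM with the control and 1541 and 1501 RPKM with the Bcl11b guide (-0.10 ± 0.04, adjusted p = 0.111). Eno1 had 828 and 783 and 776 and 753 RPKM, and Pgk1 had 711 and 718 and 669.9 and 651 RPKM, and neither passed the test. Summed RPKM of the 14 enzymes was 6679 and 6481 in the control and 6042 and 5938 in the Bcl11b guide libraries, or 91% of the control mean.

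The remaining enzymes lay as close together. Gpi1 had 178 and 169 and 172 and 171 RPKM in control and Bcl11b guide libraries, Tpi1 had 343 and 316 and 317 and 314 RPKM, and Pgam1 had 279 and 275 and 269 and 266 RPKM. Pfkl had 44.96 and 41.4 and 40.8 and 40.8 RPKM, and Hk2 had 13.99 and 13.5 and 13.5 and 13.5 RPKM. None of these 5 passed the test, with log2 fold changes from -0.08 to -0.01. Pfkp lay between 68.2 and 75.3 RPKM, Hk1 between 69.6 and 73.6 RPKM, and Aldoc between 1.62 and 1.87 RPKM.

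Pdk1, which fell in Scid.adh.2c2, rose in ILC2/b6 from 6.66 and 7.29 to 8.59 and 8.35 RPKM (0.26 ± 0.06, adjusted p = 0.0304). The rise was not called with quantile normalization (0.22, adjusted p = 0.0568). P4ha1 rose from 23.3 and 24.5 to 28.6 and 29.6 RPKM (0.28 ± 0.04, adjusted p = 0.0077), also opposite to its fall in the pro-T-like line, and the 2 tables give it different transcripts. P4ha2 rose from 2.05 and 1.80 to 3.56 and 2.92 RPKM (0.62 ± 0.11, adjusted p = 0.00994), and so rose in both lines. Pfkfb3 had 4.04 and 4.34 and 4.08 and 4.10 RPKM and overlapped between guides.

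Egln3 fell from 68.9 and 66.6 to 55.00 and 53.7 RPKM (-0.32 ± 0.04, adjusted p = 0.00236). Ndrg1 fell from 14.3 and 13.1 to 11.6 and 11.7 RPKM (-0.23 ± 0.05, adjusted p = 0.0351), at a control level far below that in Scid.adh.2c2. The levels of the lines stand in tables that were normalized separately, so they are set side by side without a test. Hif1a had 163 and 182 RPKM with the control and 155 and 153 RPKM with the Bcl11b guide (-0.16 ± 0.05, adjusted p = 0.0861), and Egln1 had 24.7 and 24.8 and 23.6 and 24.1 RPKM. Bnip3 had 85.04 and 91.8 and 84.6 and 82.02 RPKM, Bnip3l had 14.3 and 15.04 and 16.4 and 15.8 RPKM, and Higd1a had 22.1 and 22.8 and 22.2 and 21.8 RPKM. None of these 5 passed the test. Ankrd37 had 7.19 and 8.15 and 6.36 and 7.39 RPKM and overlapped between guides, whereas in Scid.adh.2c2 its groups were far apart. Vegfa lay between 11.4 and 12.4 RPKM and Ddit4 between 45.2 and 57.2 RPKM. Mgarp reached 0.465 RPKM at most. Stc1 was near 0, with control values of 0.021 and 0.015 RPKM and Bcl11b guide values of 0.014 and 0 RPKM, all under the level of 3 reads on a 2 kb transcript (0.0387 to 0.0428 RPKM).

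**Figure D3:**
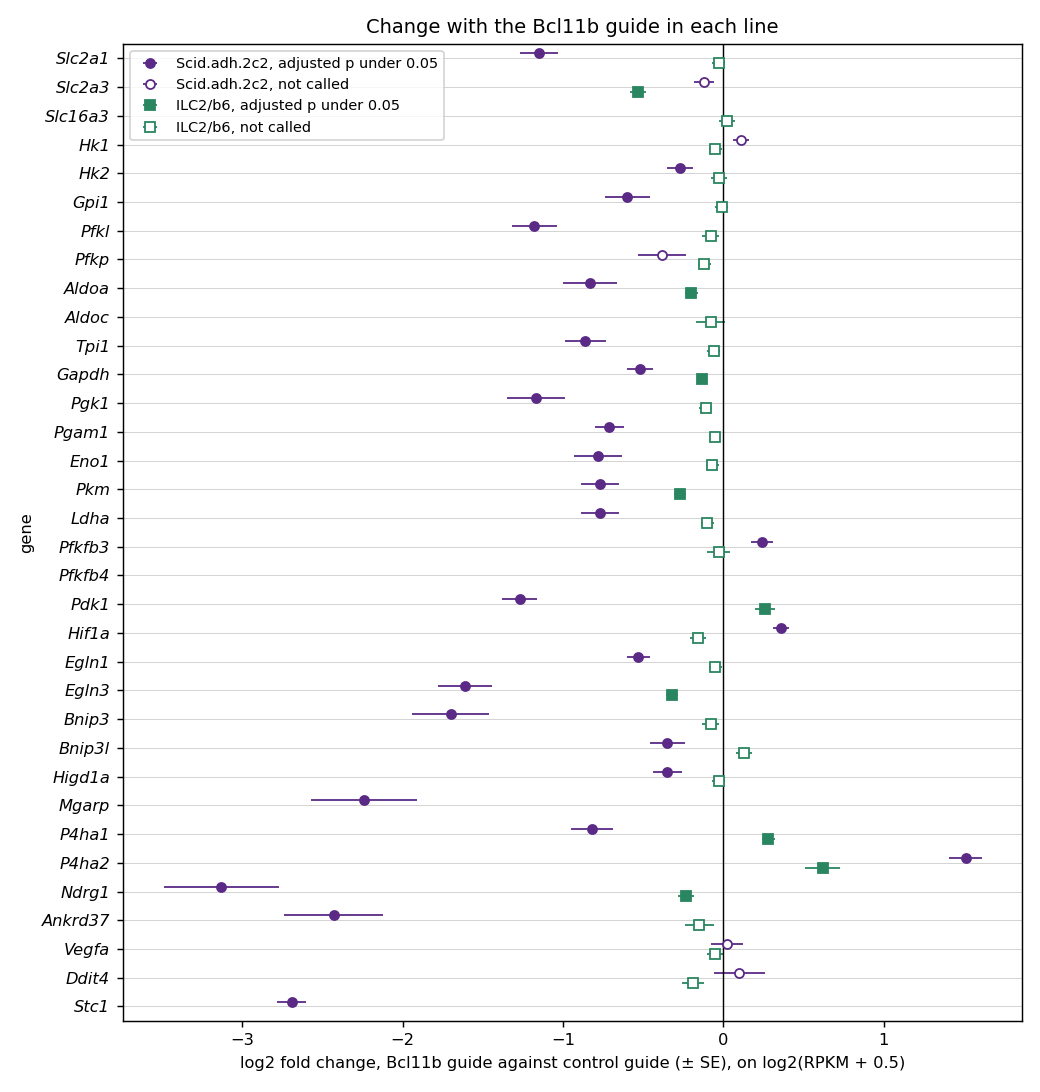
Log2 fold change with the Bcl11b guide (± SE, 2 against 2 libraries) of each gene (rows) in Scid.adh.2c2 (circles) and ILC2/b6 (squares), filled where the limma adjusted p is under 0.05; a gene below the filter of a line has no point there. Most circles lie left of 0, down to -3.13 for Ndrg1, and the squares lie between -0.53 and 0.62.

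The difference between the lines was tested itself, as the ILC2/b6 log2 fold change minus that of Scid.adh.2c2 over all 8 RNA libraries. Of 33 tested members (Pfkfb4 was below the filter in both lines), the value was above 0 and called in 22, below 0 and called in 5, and not called in 6. Over all 11600 genes tested the shares were 18.0% and 27.1%. The members' median was 0.59, beside -0.03 over all genes. Ndrg1 had the largest difference, 2.90 ± 0.48 (limma adjusted p = 0.00171), followed by Stc1 at 2.66 ± 0.10 (4.02e-07), Ankrd37 at 2.28 ± 0.42 (0.00308) and Mgarp at 2.12 ± 0.49 (0.00847). For Stc1 and Mgarp the ILC2/b6 value comes from levels under 1 RPKM. Bnip3 differed by 1.62 ± 0.32 and Pdk1 by 1.53 ± 0.15, the latter with opposite calls in the 2 lines. Among the glycolytic enzymes, 10 of 14 had a difference above 0 that was called, from 0.39 for Gapdh to 1.10 for Pfkl. The 5 members below 0 were P4ha2 (-0.89 ± 0.14), Hif1a (-0.52 ± 0.08), Slc2a3 (-0.40 ± 0.08), Pfkfb3 (-0.27 ± 0.09) and Hk1 (-0.16 ± 0.05). Not called were Slc16a3, Hk2, Pfkp, Aldoc, Vegfa and Ddit4. Pfkfb3 and Hk1 lost the call with median-centred values, and P4ha2 joined them with quantile normalization.

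Without control replicate 1 of Scid.adh.2c2 the members' median difference was 0.35, beside -0.01 over all genes tested. Without control replicate 2 these were 0.78 and -0.06. Leaving out any of the other 6 RNA libraries lost calls, and in each case Gpi1, Aldoa, Gapdh, Eno1, Pkm and Higd1a were among them. A smaller share of all genes was called in each of these fits as well.

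Other genes of the pathways were taken from lists and moved in both directions in Scid.adh.2c2, where 22.7% of all genes tested fell and 35.1% rose. Of 13 tested genes among the other glycolysis and transport genes, 4 fell, 5 rose and 4 did not pass the test, with a median of 0.25. Slc2a6, a sugar transporter of internal membranes, rose there from 0.163 and 0.132 RPKM to 16.4 and 16.1 RPKM (4.70 ± 0.08, limma adjusted p = 4.43e-08). It passed the filter through the Bcl11b guide libraries alone, so its groups had to differ. Ldhb, the lactate dehydrogenase subunit of heart, fell from 8.66 and 8.62 to 3.63 and 4.13 RPKM (-1.06 ± 0.08, adjusted p = 3.62e-05), so it fell beside Ldha. Minpp1, an inositol polyphosphate phosphatase, rose by 1.05 ± 0.05 and Slc2a8 by 0.83 ± 0.11.

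Of 31 tested genes on the list of other hypoxia genes, 12 fell, 9 rose and 10 did not pass, with a median of -0.09. Fam162a, a HIF target, fell from 153.5 and 105.5 to 53.5 and 53.4 RPKM (-1.24 ± 0.15, limma adjusted p = 0.000355), with controls spread in the same order as those of the members. Cited2, which competes with HIF for a coactivator, rose from 8.75 and 7.46 to 28.4 and 28.9 RPKM (1.76 ± 0.08, adjusted p = 1.76e-06). Bhlhe40, a transcriptional repressor that hypoxia induces, rose from 19.2 and 13.0 to 33.5 and 34.3 RPKM (1.08 ± 0.15), and Plod1, a collagen lysyl hydroxylase, rose by 0.83 ± 0.09. Known HIF targets outside the members thus moved in both directions.

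All 22 genes of pyruvate oxidation and the citric acid cycle were tested, and 11 fell, 2 rose and 9 did not pass, with a median of -0.12. Beside the 22.7% and 35.1% of all genes tested, falls on this list also stand above the background and rises below it. The named changes were small, with Suclg2 at -0.32 ± 0.04, Sdhd at -0.28 ± 0.04, Dlat at -0.27 ± 0.05 and Pdha1 at 0.25 ± 0.04. Of the 7 pentose phosphate genes 3 fell and 3 rose. Of the oxidative branch Pgd and G6pdx rose by 0.66 ± 0.04 and 0.49 ± 0.04 and Pgls was at -0.19 ± 0.05, and of the other branch Tkt and Rpia were at -0.35 ± 0.05 and -0.30 ± 0.04 and Rpe rose by 0.24 ± 0.05, so each branch held genes of both directions. Of 4 tested gluconeogenesis genes 1 fell, Fbp1, whose enzyme opposes phosphofructokinase, from 33.6 and 37.1 to 4.60 and 5.10 RPKM (-2.74 ± 0.07, limma adjusted p = 2.08e-07). Of 9 tested genes of the amino acid and ER stress response, which also induces Ddit4, 5 fell and 3 rose. Cth was at -1.01 ± 0.08, Slc7a11 at -0.59 ± 0.05, Sesn2 at 0.97 ± 0.05 and Ddit3 at 0.68 ± 0.05.

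In ILC2/b6, where 6.21% of all genes tested fell and 8.32% rose, these lists held fewer calls. Of 12 tested other glycolysis genes 1 fell and 2 rose, of 36 other hypoxia genes 4 fell and 6 rose, and of 22 genes of pyruvate oxidation and the citric acid cycle 1 fell, Mdh2 at -0.19 ± 0.04. None of 7 pentose phosphate and 3 gluconeogenesis genes was called by limma. Slc2a6 rose from 4.19 and 4.37 to 13.3 and 13.0 RPKM (1.52 ± 0.05, adjusted p = 1.7e-05), and so rose in both lines. Plod1 rose by 1.37 ± 0.05 and Cited2 by 0.36 ± 0.04, both also in both lines. Fut11 rose by 0.35 ± 0.07. Bpgm was at -0.21 ± 0.05 and Adpgk at 0.26 ± 0.04. Of 10 tested genes of the amino acid and ER stress response 5 fell, among them Cth at -0.56 ± 0.08, Slc7a11 at -0.32 ± 0.05, Asns at -0.27 ± 0.04 and Phgdh at -0.22 ± 0.04.

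**Figure D4:**
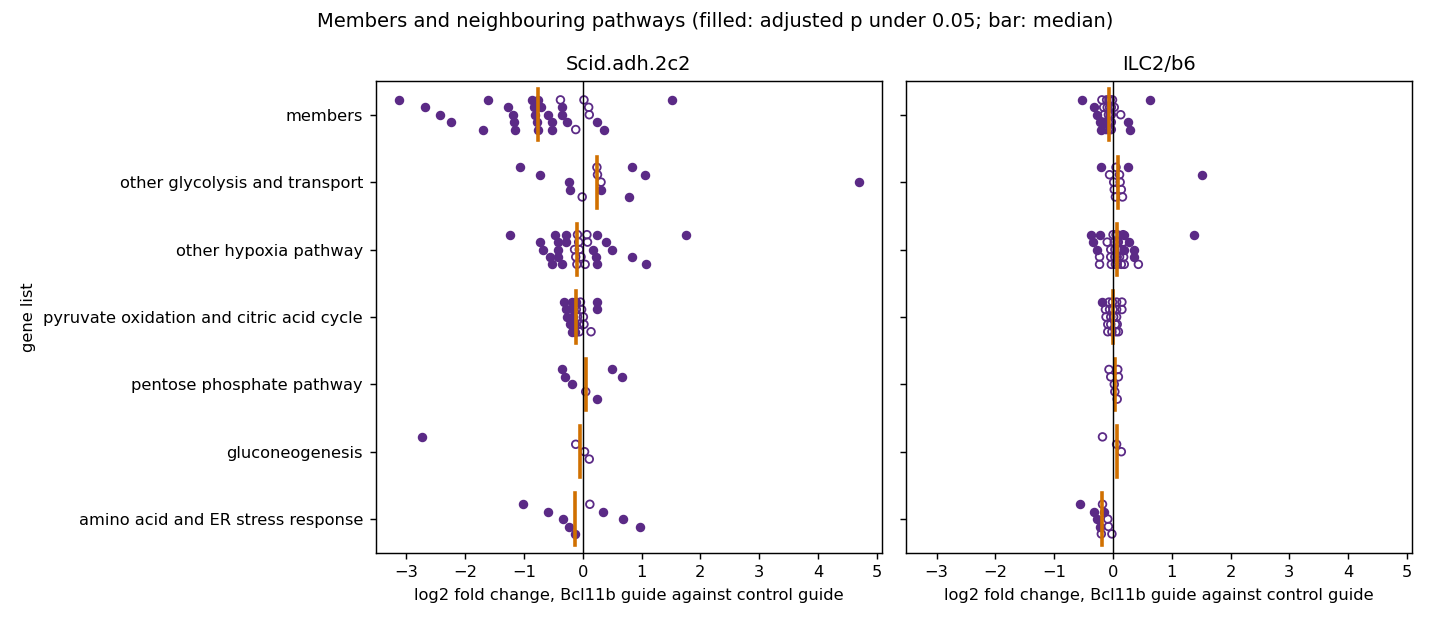
Log2 fold change with the Bcl11b guide of each tested gene (points, filled where the limma adjusted p is under 0.05) for the 34 genes (top row, "members") and 6 lists of neighbouring pathways, with each list's median as a bar. In Scid.adh.2c2 the top row has its median at -0.77, and the 6 lists below have medians from -0.13 to 0.25.

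ChIP-seq peaks were assigned to genes by the authors' annotation of 8 lists, 1 per factor and line, each made from 2 libraries together, so no peak has a replicate check. Counts use the deposited gene names, which 1475 of the Bcl11b peaks in Scid.adh.2c2 and 1625 in ILC2/b6 lack. In Scid.adh.2c2, Bcl11b had at least 1 peak at 29 of 34 members, beside 37.8% of all genes and 68.7% of the genes tested for RNA in that line. A promoter peak, within 1 kb of the annotated start, was present at 25 members, beside 26.6% of all genes and 59.8% of tested genes. The members are mostly expressed genes, so the share of tested genes is the nearer background, and most expressed genes had such a peak. Members with no named Bcl11b peak were Slc16a3, Pfkl, Aldoc, Pfkfb4 and Higd1a. When unnamed peaks were given the gene of their nearest transcript, an alternative chosen after seeing the data, Pfkl and Higd1a, which both fell, gained a promoter peak. This made 31 members with a peak and 27 with one at the promoter, with no share of all genes counted with these peaks added.

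In ILC2/b6, Bcl11b had a peak at 29 members (39.2% of all genes, 66.6% of tested genes) and a promoter peak at 27 (25.2% and 52.6%). The members with no peak there were Aldoc, Tpi1, Pfkfb4, Mgarp and Stc1, also with unnamed peaks added. A Bcl11b promoter peak stood at 23 members in both lines, beside 19.0% of all genes and 46.9% of the 9147 genes tested in both. Of the 23, 18 fell in Scid.adh.2c2, and the other 5 were Slc2a3, Hk1, Pfkfb3, Hif1a and Ddit4.

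Bcl11b promoter peaks stood at members of every kind of call. In Scid.adh.2c2 one was present at 19 of the 23 members that fell, 2 of the 3 that rose and 4 of the 5 not called, beside 59.4%, 60.6% and 59.3% of all genes with those calls, all by deposited names. In ILC2/b6 all 6 members that fell had one, as did 2 of 3 that rose and 19 of 22 not called, beside 54.6%, 55.3% and 52.2%. P4ha2, which rose in both lines, had no Bcl11b promoter peak in either.

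The other 3 factors were counted in the same way. GATA3, a zinc finger factor of T cells and ILC2, had a peak at 23 members in Scid.adh.2c2 (54.1% of all genes, 58.6% of tested genes) but a promoter peak at 8 (6.24% of all genes, 11.3% of tested genes). In ILC2/b6 it had a peak at 26 members (50.2%, and 62.3% of tested genes) and a promoter peak at 7 (8.67%, and 15.5%). Within 5 kb of the start, GATA3 had a peak at 16 members in each line, with no share of all genes counted at that distance. Runx1, a runt-domain factor, had a peak at 24 members in Scid.adh.2c2 (33.0%, and 59.8% of tested genes), 21 of them at the promoter (21.8%, and 49.0% of tested genes). In ILC2/b6 these were 29 (41.4%, and 66.8%) and 25 (23.7%, and 49.0%). Runx3, its paralog, had a peak at 31 members in Scid.adh.2c2 (42.1%, and 71.1%), 26 of them at the promoter (26.7%, and 59.4%). In ILC2/b6 these were 30 (57.8%, and 84.2%) and 27 (37.6%, and 72.6%). For Runx3 in ILC2/b6 the 30 members are 88.2% of 34, near the share of tested genes. Adding unnamed peaks gave 1 or 2 more members in each Runx1 and Runx3 list, again with no share of all genes counted.

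**Figure D5:**
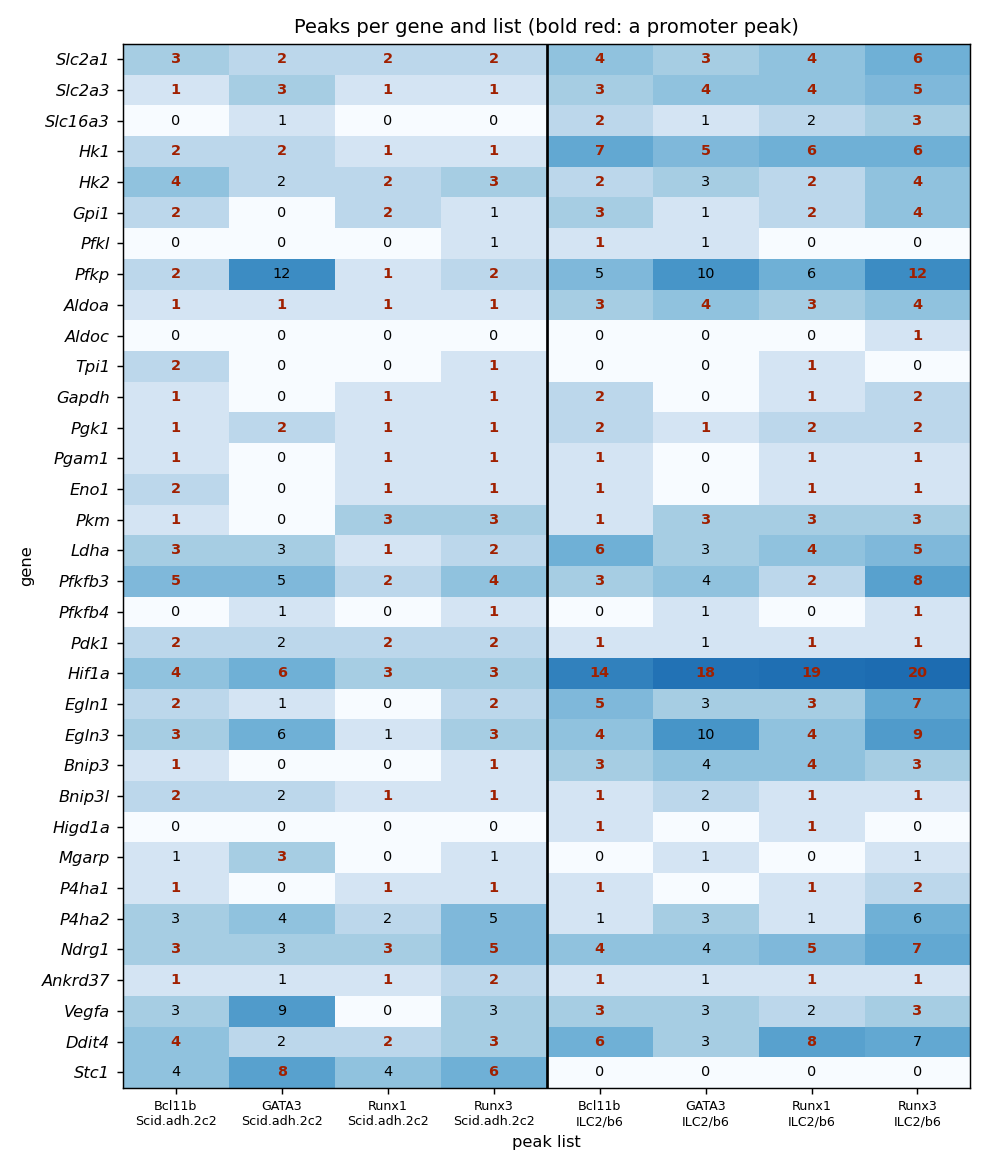
Number of peaks assigned by deposited name to each of the 34 genes (rows) in the 8 peak lists (columns, Scid.adh.2c2 left and ILC2/b6 right of the line), darker for more peaks, in bold red where at least 1 lies within 1 kb of the annotated start. Hif1a has up to 20 peaks in an ILC2/b6 list, and Stc1 has 4 to 8 in each Scid.adh.2c2 list and 0 in each ILC2/b6 list.

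Peak scores are the authors' and rank peaks within a list only. The highest member peak of Bcl11b in Scid.adh.2c2 was intergenic, at chr15:66871015-66871251 (mm9), -69930 bases from the start of Ndrg1, with a score of 118.6 and rank 281 of 17874. In ILC2/b6 a Bcl11b peak overlapped this position, at chr15:66871000-66871254 with a score of 53 and rank 3478 of 21677. Distant peaks are assigned to the gene with the nearest start and may belong to another. At the Ndrg1 promoter Bcl11b had peaks in both lines, at -100 and -93 bases from the start, with scores of 40.9 and 35.3.

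Stc1 had peaks in one line and not in the other. In Scid.adh.2c2 it had 4 Bcl11b, 8 GATA3, 4 Runx1 and 6 Runx3 peaks, and in ILC2/b6, where its RNA was at or near 0, it had none. The highest of each factor lay at 1 place about 24 kb past the start, in intergenic sequence, for Bcl11b at chr14:69671296-69671532 (24068 bases, score 70.9) and for GATA3 at chr14:69671248-69671564 (score 262.6, rank 297 of 36973). Another Bcl11b peak lay in the 3′ UTR in exon 4 of 4 (chr14:69658241-69658477, score 60.3).

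Egln3 had its highest Bcl11b peak in intron 1 of 4 in both lines, at chr12:55288918-55289154 in Scid.adh.2c2 (score 64.4) and chr12:55288984-55289238 in ILC2/b6 (score 119.9). Pfkp had the highest member peak of Bcl11b in ILC2/b6, in intron 1 of 21 (chr13:6643206-6643460, score 133.7, rank 296), and GATA3 peaked there as well (chr13:6643127-6643415, score 297.7, rank 82 of 33709). Hif1a had 14 Bcl11b, 18 GATA3, 19 Runx1 and 20 Runx3 peaks in ILC2/b6 and 4, 6, 3 and 3 in Scid.adh.2c2, and its Runx1 peak in ILC2/b6 at chr12:74880261-74880525, -121918 bases from the start, ranked 50 of 26258. P4ha2 had its highest Bcl11b peak in Scid.adh.2c2 in intron 13 of 15 (chr11:53940309-53940545, score 54.9). Runx3 had its highest member peak of that line at the same place (chr11:53940219-53940475, score 163.5, rank 449 of 20523).

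Promoter peaks of members that fell ranked from 1872 to 5904 of 17874 where named here. In Scid.adh.2c2 Bcl11b had scores of 61.2 at Pkm (chr9:59503884-59504120), 57.9 at Eno1 (chr4:149610974-149611210) and 57.9 at Gpi1 (chr7:35015349-35015585). It had 55.2 at Ankrd37 (chr8:47085226-47085462), 48.5 at Pdk1 (chr2:71711154-71711390) and 46.9 at Ldha (chr7:54101005-54101241). Bnip3 had 35.6 at its promoter (chr7:146101338-146101574) and Slc2a1 35.5 (chr4:118781051-118781287). The median over the 65 member peaks was 32.9, beside 27.6 over the list.

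Of the 65 Bcl11b member peaks in Scid.adh.2c2, 14 (21.5%) overlapped a GATA3 peak, 36 (55.4%) a Runx1 peak and 44 (67.7%) a Runx3 peak by at least 1 bp. Over all 17874 Bcl11b peaks these shares were 19.3%, 61.2% and 73.5%. A Bcl11b peak of ILC2/b6 overlapped 34 (52.3%), beside 43.1% of all. Of the 91 member peaks in ILC2/b6, 26 (28.6%), 68 (74.7%) and 82 (90.1%) overlapped GATA3, Runx1 and Runx3, beside 35.0%, 71.0% and 85.0% of all 21677. In Scid.adh.2c2, 33 of the 65 member peaks were at promoters, beside 43.8% of all peaks in that list.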

How the data were processed

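RNA-seq (50 nt reads) gave 1 table per line, in which the authors deposited RPKM for 1 RefSeq transcript per gene with its mm9 position and length, per the file headers. For ChIP-seq the authors deposited peak lists with a score and a nearest gene per peak, made with HOMER from 2 libraries together on mm9, per the file headers. The submitters' processing notes also name STAR 2.4.0, RSEM 1.2.25, Bowtie 1.1.1, edgeR 3.6.8, Trimmomatic and NCBIM37, without their roles. The sources used here do not say whether counting used strand.

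Total reads were worked out from low RPKM values: in each library all 1558 to 1960 values checked were whole reads within 0.1 read. Depths of 34.7 to 43.7 M reads put 3 reads on a 2 kb transcript at 0.0343 to 0.0432 RPKM, which covers counting error only. Genes at 1 RPKM or more in at least 2 of a line's 4 libraries were tested with limma 3.58.1 (R 4.3.3) on log2(RPKM + 0.5) with a mean-variance trend, fitted per line over all genes, at a Benjamini-Hochberg adjusted p under 0.05. The difference between lines is a contrast over all 8 libraries. Fitting was tested on simulated data. A promoter peak lies within 1 kb of the annotated start.

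The members and the pathway lists were chosen with earlier results of these data known. All members are accounted for, in full where called in either line. From each pathway list at most 4 called genes per line are named, those with the largest fold, and for peaks the highest scoring Bcl11b peak of a member and line, with some further peaks chosen after their values were seen. Promoters are printed for members called in Scid.adh.2c2 with the largest folds, at most 8 where the table holds them. Alternatives were other pseudocounts, no filter, other scalings, no trend, a joint fit, a replicate block, leaving out each library, and other peak limits. The inputs were not used. Some genes of the lists are not reported here.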

Additional observations from a re-analysis of the deposited data

Results flagged for a closer look

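For 27 members the log2 fold change with the Bcl11b guide differed between the lines in the contrast over all 8 RNA libraries (limma, adjusted p under 0.05), each given as ILC2/b6 minus Scid.adh.2c2. Among hypoxia-induced and mitochondrial genes the difference was 2.90 for Ndrg1, 2.66 for Stc1, 2.28 for Ankrd37, 2.12 for Mgarp, 1.62 for Bnip3, 0.48 for Bnip3l and 0.32 for Higd1a. Among glycolytic enzymes it was 1.10 for Pfkl, 1.05 for Pgk1, 0.80 for Tpi1, 0.71 for Eno1, 0.67 for Ldha, 0.65 for Pgam1, 0.63 for Aldoa, 0.59 for Gpi1, 0.50 for Pkm, 0.39 for Gapdh and -0.16 for Hk1. Regulators and transporters had 1.53 for Pdk1, -0.27 for Pfkfb3, 1.13 for Slc2a1 and -0.40 for Slc2a3. Oxygen sensing genes and collagen hydroxylases had 1.29 for Egln3, 0.47 for Egln1, -0.52 for Hif1a, 1.10 for P4ha1 and -0.89 for P4ha2. The control libraries of Scid.adh.2c2 enter all of these values: without replicate 1 of them the median over members was 0.35, and without replicate 2 it was 0.78.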

How the results depend on the processing

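Between 23 and 30 members were called in Scid.adh.2c2 as single libraries were left out, 5 to 13 in ILC2/b6 and 18 to 28 in the difference. The share of all genes called also changed between these fits, each of which leaves a lone library in a group. The spread of these counts therefore cannot be read as a property of the members. With no filter on low values 3 members were called in Scid.adh.2c2, 0 in ILC2/b6 (12 at an unadjusted p under 0.05, limma) and 12 in the difference. Over all genes that setting called 3835, 133 and 4741, and the cause was not tested. ILC2/b6 had 5 members called without a mean-variance trend and 2 under the joint fit, beside 10.2% and 14% of all genes tested. In Scid.adh.2c2, Hk1 was at -0.02 after median centring and -0.03 under quantile normalization, Vegfa at -0.11 and -0.10, and Ddit4 at -0.04 with centring. As single libraries were left out, Vegfa ranged from -0.13 to 0.18 and Ddit4 from -0.20 to 0.39. In ILC2/b6, Slc16a3 was at -0.01 with centring, and with quantile normalization Gpi1 was at 0.03 and Ldha at 0.02. There, leaving out single libraries gave -0.06 to 0.00 for Slc2a1, -0.05 to 0.09 for Slc16a3, -0.05 to 0.02 for Gpi1 and -0.08 to 0.02 for Pfkfb3. The ILC2/b6 control replicates' median log2 ratio was 0.01 with quantile normalization. Within 5 kb, GATA3 had promoter peaks at 16 members in Scid.adh.2c2 and 16 in ILC2/b6, and under the deposited promoter annotation at 4 and 4. Among the peaks at or above a list's median score, Runx3 kept 18 members in Scid.adh.2c2 and GATA3 17 in ILC2/b6. No share of all genes was counted under these other peak limits.

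Replicate numbers are shared between guides, but nothing shows that they pair libraries, and with 2 pairs a block rests on little. With a replicate block 27 members were called in Scid.adh.2c2 (Pfkp gained), beside 57.9% of all genes tested. In ILC2/b6 12 were called (Pgk1, Hif1a and Ddit4 gained), beside 21.5%. In the difference 26 were called (Hk2 gained, Hk1 and Higd1a lost), beside 42.1%. Over all genes of ILC2/b6, 9.1% fell and 12.4% rose with the block, against 6.21% and 8.32% without it. The deviations of same-numbered libraries had a correlation across genes of 0.04 over all genes and 0.50 over members in Scid.adh.2c2, and 0.11 and 0.18 in ILC2/b6; genes are not independent replicates.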
